A study of Mus musculus with 16 samples.

Results

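The comparison set extracellular microRNAs (miRNAs) released by cells given 10 Gy of X-rays against those released by cells given 6 Gy. The cells were HCT116, an established human colorectal carcinoma line. Its 8 arrays, 4 per dose and all on 1 slide, were chosen by their titles from 16 arrays in the series, and every human miRNA on them that passed a detection filter was tested. All groups shared the same line, medium (RPMI1640 with 10% fetal bovine serum) and 72 h of culture after exposure at a high dose rate, and small RNA was taken from the culture supernatant. The design text speaks of 4 independent experiments per dose in different cell cultures. The remaining 8 arrays, 4 each at 0 and 2 Gy, lay on another slide. Mouse is the labelled organism, but HCT116 is of human origin and the probes carry human miRNA names, so values were read as human.

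A miRNA is a short RNA that guides a silencing complex to messenger RNAs, chiefly through its seed, bases 2 to 8 from the 5′ end. Members of a family share the seed and so share most of their targets. Cells release miRNAs in vesicles and bound to proteins, and dying cells leak them, so the supernatant holds a mixture of these. In such bulk medium, a difference in the number of cells that released RNA and a difference in the amount released per cell cannot be told apart. Serum in the medium also carries miRNAs of its own.

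The miRNAs that carry the comparison are shown first by sequence, with the seed in capitals. Human sequences were not used here. The lines give mouse entries of the same name from RefSeq (GRCm38.p6), a match found for 89 of the 283 tested names. The search left out the entries of a mouse chromosome, so a name without a match may still have a mouse entry. All 10 of the largest rises described below had such an entry. Also shown are miR-221-3p, which has the seed of miR-222-3p, let-7i-5p, which has that of let-7b-5p and let-7c-5p, and 6 other described miRNAs with an entry.
miR-125b-5p: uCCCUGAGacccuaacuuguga
miR-100-5p: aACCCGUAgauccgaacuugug
miR-25-3p: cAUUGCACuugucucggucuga
miR-29a-3p: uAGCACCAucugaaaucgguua
miR-200c-3p: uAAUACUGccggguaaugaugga
miR-141-3p: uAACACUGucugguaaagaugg
let-7c-5p: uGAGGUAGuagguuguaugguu
let-7b-5p: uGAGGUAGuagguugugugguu
let-7i-5p: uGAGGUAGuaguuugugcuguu
miR-222-3p: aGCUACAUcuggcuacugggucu
miR-221-3p: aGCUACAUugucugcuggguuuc
miR-210-3p: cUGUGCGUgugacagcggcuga
miR-551b-5p: gAAAUCAAgcuugggugagaccu
miR-149-3p: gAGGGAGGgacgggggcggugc
miR-181b-5p: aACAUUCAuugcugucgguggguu
miR-708-5p: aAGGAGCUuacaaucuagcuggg
miR-339-3p: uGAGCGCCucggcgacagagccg
miR-18b-3p: uACUGCCCuaaaugccccuucu
In these entries let-7b-5p and let-7c-5p differed at 1 of 22 bases, and let-7b-5p and let-7i-5p at 3 of 22. Signals of such close relatives on a hybridisation array may be shared, and how much was not tested. miR-221-3p and miR-222-3p share the seed but differed at 12 of 23 bases.

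At 10 Gy, a group of well-known cellular miRNAs had higher scaled signals than at 6 Gy, when arrays were compared within replicate numbers. They included let-7 family members, miR-221-3p and miR-222-3p, miR-125b-5p, miR-100-5p, the epithelial miR-200c-3p and miR-141-3p, and the hypoxia-induced miR-210-3p. The largest rise was 4.52-fold, for miR-125b-5p, and the largest fall was 1.53-fold, for miR-3667-5p. Without the pairing, no miRNA passed the test. None passed either when the signal of an RNA added at the labelling step, described below, entered the paired fit. Scaled signals are relative to each array's own level and do not measure the amount in the supernatant.

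Each value below is log2 of the array's signal divided by its own 75th percentile, with a floor at -4.60 below which values have no order, so differences that start at the floor are understated. Levels may be compared between arrays for 1 miRNA, not between miRNAs. In the unpaired comparison, fitted with limma on all 16 arrays, 0 of 283 miRNAs were called (0%) at an adjusted p under 0.05. At an unadjusted p under 0.05 there were 42, and the smallest adjusted p was 0.321 (limma with Benjamini-Hochberg adjustment). A typical miRNA's 95% interval reached 0.34 to either side of its difference. With the replicate number as a block on the 8 arrays, 55 were called, 36 higher at 10 Gy (12.7%) and 19 lower (6.71%), and 121 had an unadjusted p under 0.05. The balance depended on the scaling: 28 were higher and 100 lower when arrays were scaled over all human probes, and 14 and 41 with Agilent's total signal per miRNA. With no floor 4 were called. On the same 8 arrays without the block, limma called 0, with 69 at an unadjusted p under 0.05 and a smallest adjusted p of 0.0635. The differences themselves are the same in the paired and unpaired fits, running from -0.61 to 2.18 with a median of 0.003. The fits differ in the error and in the arrays used. Over the 36 rises the median standard error (SE) was 0.16 paired on 8 arrays and 0.44 unpaired on 16. Over all 283 miRNAs the median SE was 0.098 paired, 0.131 unpaired on the same 8 arrays and 0.161 unpaired on 16.

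**Figure D1:**
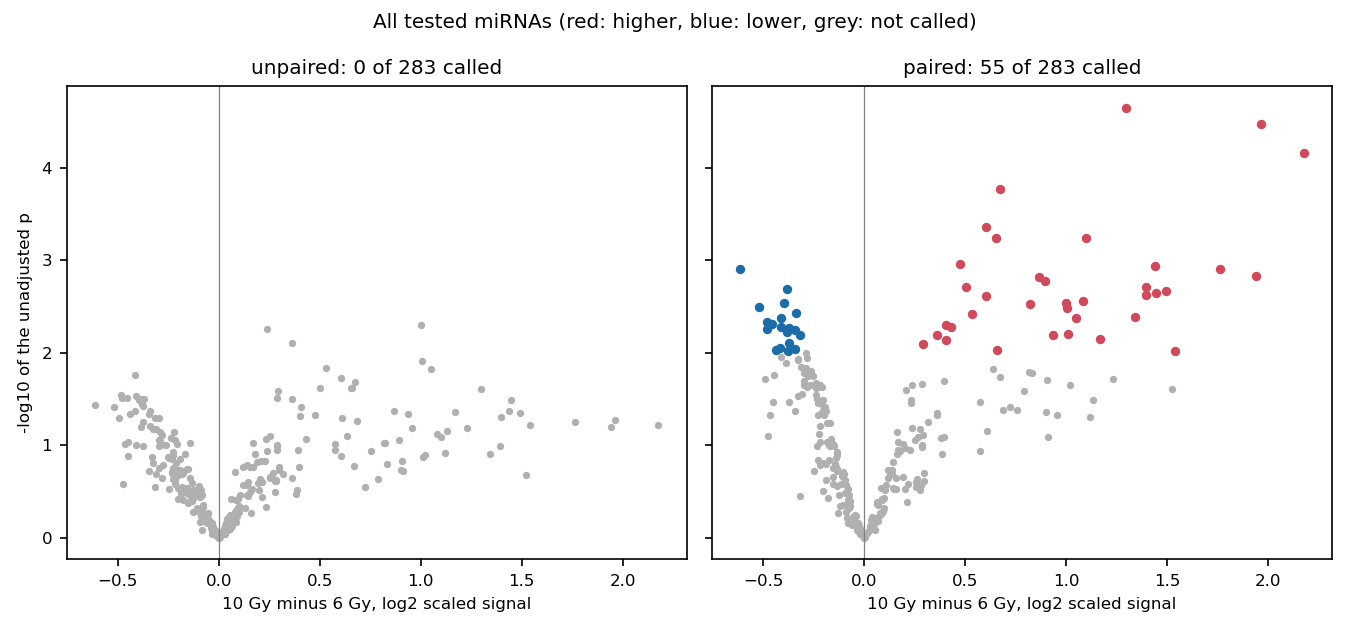
Difference between 10 and 6 Gy (log2 scaled signal, horizontal axis) against -log10 of the unadjusted p (vertical axis) for the 283 tested miRNAs, unpaired (left) and paired by replicate number (right). The unpaired fit called 0 and the paired fit 55, with 36 to the right of 0 and 19 to the left, where no difference went beyond -0.61.

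Whether the numbers pair cultures is not stated in the labels. Deviations from the dose mean, over 283 miRNAs, correlated between same-numbered arrays at 0.23, 0.72, 0.44 and 0.67 for numbers 1 to 4, all above the 0.1 taken as the mark of pairing. Each number's own partner was the best match for 2 of the 4. Some differently numbered arrays also exceeded 0.1: 0.62 for 6 Gy array 3 with 10 Gy array 2, and 0.57 for 6 Gy array 2 with 10 Gy array 3. The values were 0.30 for 6 Gy array 1 with 10 Gy array 4, and 0.26 for 6 Gy array 4 with 10 Gy array 1. The 0.1 mark therefore cannot tell pairing from other variation that arrays share. Between the other pairs of doses, between 1 and 3 of the 4 same-numbered correlations exceeded 0.1. The 6 Gy arrays occupied slide columns 1 and 2 and the 10 Gy arrays columns 3 and 4, so dose and slide column cannot be told apart. Numbers 1 and 2 lay in slide row 1 and numbers 3 and 4 in row 2. With the row as the block, limma called 0 miRNAs, with 66 at an unadjusted p under 0.05 and a smallest adjusted p of 0.109.

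The arrays also differed in a technical measure. The labelling spike-in is an RNA added at the labelling step, and its log2 signal was 1.67, 5.50, 5.95 and -2.32 on the 6 Gy arrays 1 to 4. On the 10 Gy arrays it was 6.85, 9.02, 7.58 and 6.06, so every 10 Gy array lay above every 6 Gy array. By the scanner software's own range check, the signal was in range on 10 Gy array 2 and out of range on the other arrays of both doses. Of the 2 spike-in species, 1 was undetected on 6 Gy array 1 and both on 6 Gy array 4, and there the scanner software's placeholder for an undetected spike-in enters the value. The mean difference was 4.68 (exact two-sided permutation p = 0.0286, the smallest that 4 against 4 arrays allow; 0.114 adjusted over 4 array measures). Detected human miRNAs numbered 299, 328, 259 and 300 at 6 Gy and 321, 309, 300 and 242 at 10 Gy, with means of 296.5 ± 28.4 and 293 ± 35.1 (SD, n = 4; exact permutation p = 0.914). The 75th percentile before scaling was 9.09 ± 0.44 at 6 Gy and 8.61 ± 0.31 at 10 Gy on the log2 scale (SD, n = 4; exact permutation p = 0.114, adjusted 0.229). Hybridisation spike-ins averaged 13.6 ± 0.50 and 13.5 ± 0.25 (SD, n = 4; exact permutation p = 0.686).

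When the spike-in signal was added as a covariate beside the replicate block, limma called 0 of the 283 miRNAs, with 21 at an unadjusted p under 0.05 and a smallest adjusted p of 0.272. All 55 called differences kept their sign in that fit, but not their size. Of the 36 rises, 17 became smaller by over 1.5 times, and the median rise went from 1.00 to 0.66. Of the 19 falls, 4 became smaller by over 1.5 times, and their median went from -0.40 to -0.45. For miRNAs named below, values with the covariate are given where they shrank this far. The part of the spike-in in the rises and falls below was not tested further.

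**Figure D2:**
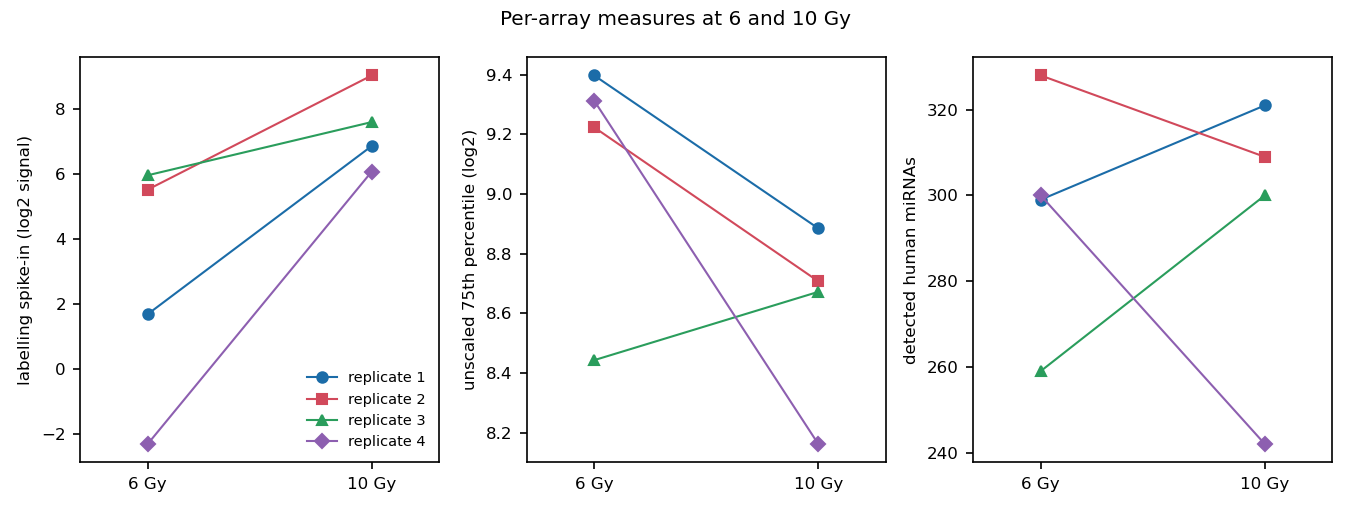
Labelling spike-in signal (log2), 75th percentile before scaling (log2) and number of detected human miRNAs on each array, with lines joining same-numbered arrays at 6 and 10 Gy. The spike-in was higher at 10 Gy in all 4 numbers, by 5.18, 3.51, 1.64 and 8.38, and the number of detected miRNAs was higher in 2 of them.

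miR-125b-5p, the counterpart of the worm timing miRNA lin-4, had levels of -4.60, -2.14, -2.99 and -4.60 at 6 Gy for numbers 1 to 4. At 10 Gy its levels were -1.73, -0.30, -0.84 and -2.76. Arrays 1 and 4 at 6 Gy were at the floor, and the 10 Gy array 4 overlapped the higher 6 Gy arrays. It rose in every pair, by 2.18 ± 0.19 (SE; 95% interval 1.69 to 2.67; paired limma adjusted p = 0.00649). Unpaired and on all 16 arrays, the SE of the same difference was 1.06 (limma adjusted p = 0.326). miR-100-5p, often transcribed together with miR-125b and let-7 genes, was at -4.49, -2.55, -2.58 and -4.60 at 6 Gy and -2.23, -1.24, -1.81 and -3.37 at 10 Gy. It rose by 1.39 ± 0.25 (SE; paired limma adjusted p = 0.0325), and number 4 was again the lowest at both doses. These were the 2 tested members of the 5 names in the miR-125, miR-100 and miR-99 list, and both rose, as did 12.7% of all tested miRNAs.

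miR-25-3p belongs to the miR-106b-25 cluster and shares its seed with miR-92a-3p. Its levels were -4.26, -2.54, -2.92 and -4.60 at 6 Gy and -2.28, -0.24, -1.47 and -2.48 at 10 Gy. All 4 arrays at 10 Gy lay above all 4 at 6 Gy, a pattern of 23 of the 283 miRNAs (8.13%). It rose by 1.96 ± 0.15 (SE; paired limma adjusted p = 0.00474). miR-93-5p of the same cluster rose by 1.01 ± 0.23 (SE; paired limma adjusted p = 0.0408), with 0.22 in number 2 and 1.60 in number 1; with the spike-in covariate its difference was 0.60. miR-17-5p, with the seed of miR-93-5p, was 1.02 ± 0.32 higher (SE; paired limma adjusted p = 0.0738), miR-92a-3p 0.96 ± 0.37 higher (adjusted p = 0.112) and miR-92b-3p 0.0015 higher (adjusted p = 0.989). In the list of the miR-17-92 and paralogous clusters, 2 of 5 tested members rose and 0 fell, with a median difference of 1.01. Among all tested miRNAs 12.7% rose and 6.71% fell, with a median of 0.003. The list leaves out miR-18b-3p, a passenger arm from such a paralogous cluster, which fell by 0.48 on the log2 scale, as described below.

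miR-221-3p and miR-222-3p are made from 1 cluster and act on cell cycle inhibitors such as p27. miR-221-3p was at -4.51, -3.33, -3.70 and -4.60 at 6 Gy and -3.24, -1.83, -2.63 and -3.26 at 10 Gy. Its pair differences were 1.28, 1.50, 1.08 and 1.34, which gave 1.30 ± 0.09 (SE; paired limma adjusted p = 0.00474). miR-222-3p was at -2.63, -1.77, -2.06 and -4.22 at 6 Gy and -1.42, -0.66, -1.05 and -1.76 at 10 Gy, and rose by 1.45 ± 0.26 (SE; paired limma adjusted p = 0.0325). For both, the dose groups did not overlap. miR-222-3p had its largest difference, 2.45, in number 4, where the 6 Gy array was the lowest of the 8. With the spike-in covariate miR-222-3p was 0.43 ± 0.29 higher (SE) and miR-221-3p 1.19 ± 0.22.

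The let-7 family restrains growth and stem cell programmes in many tissues. let-7b-5p was at -2.30, -0.29, -1.62 and -3.01 at 6 Gy and -0.53, 0.21, -0.28 and -1.03 at 10 Gy. It was detected on all 8 arrays and never at the floor, and it rose by 1.40 ± 0.26 (SE; paired limma adjusted p = 0.0325). let-7c-5p was at -3.83, -1.73, -3.28 and -4.60 at 6 Gy and -1.96, -1.23, -1.73 and -2.55 at 10 Gy, and rose by 1.49 ± 0.27 (SE; paired limma adjusted p = 0.0325). let-7i-5p rose by 1.17 ± 0.27 (SE; paired limma adjusted p = 0.0433). All 3 tested members of the 9 listed let-7 names, which are 5p arms only, rose, with a median of 1.40. Over all tested miRNAs 12.7% rose and the median was 0.003. With the spike-in covariate let-7b-5p was 0.72 ± 0.47 and let-7c-5p 0.87 ± 0.52 higher (SE). In let-7b-5p, let-7c-5p and let-7i-5p number 2 moved least, by 0.50, 0.50 and 0.15, and array 2 was the highest of the 6 Gy arrays. Tested 3p arms of the family, outside that list, were not called. let-7b-3p differed by -0.27, let-7f-1-3p by -0.30 and let-7d-3p by 0.61 (paired limma adjusted p = 0.0738, 0.0649 and 0.155).

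miR-200c-3p and miR-141-3p come from 1 cluster and keep the epithelial state by acting on ZEB factors. miR-200c-3p was at -4.60, -1.91, -2.86 and -4.60 at 6 Gy and -1.83, -0.84, -1.43 and -2.83 at 10 Gy, a rise of 1.76 ± 0.28 (SE; paired limma adjusted p = 0.0319). miR-141-3p was at -2.15, -1.17, -2.18 and -4.60 at 6 Gy and -0.65, -0.75, -0.82 and -1.72 at 10 Gy, a rise of 1.54 ± 0.39 (SE; paired limma adjusted p = 0.0487). With the spike-in covariate miR-141-3p was 0.24 ± 0.57 higher (SE), and miR-200c-3p 1.32 ± 0.60. These were the 2 tested of 8 epithelial and intestinal names, 4 of which were detected on any of the 8 arrays. Both rose, beside 12.7% of all tested miRNAs. The summed scaled signal of the 8 names ran from 0.0198 to 0.737 over the 6 Gy arrays and from 0.475 to 1.17 over the 10 Gy arrays. miR-200a-3p, miR-192-5p, miR-194-5p and miR-215-5p were detected on 0 of the 8 arrays.

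miR-29a-3p, which acts on collagens and other matrix genes, was at -2.96, -0.63, -1.74 and -4.60 at 6 Gy and -0.44, 0.43, -0.34 and -1.82 at 10 Gy. It rose by 1.94 ± 0.32 (SE; paired limma adjusted p = 0.0325), and was 0.79 ± 0.42 higher with the spike-in covariate. miR-210-3p, induced by hypoxia through HIF1A, was at -3.72, -2.46, -3.40 and -4.60 at 6 Gy and -2.15, -1.84, -1.81 and -2.63 at 10 Gy. It rose by 1.44 ± 0.23 (SE; paired limma adjusted p = 0.0319), and was 0.96 ± 0.46 higher with the spike-in covariate. For both miRNAs the lowest array at each dose was number 4, and the groups overlapped.

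**Figure D3:**
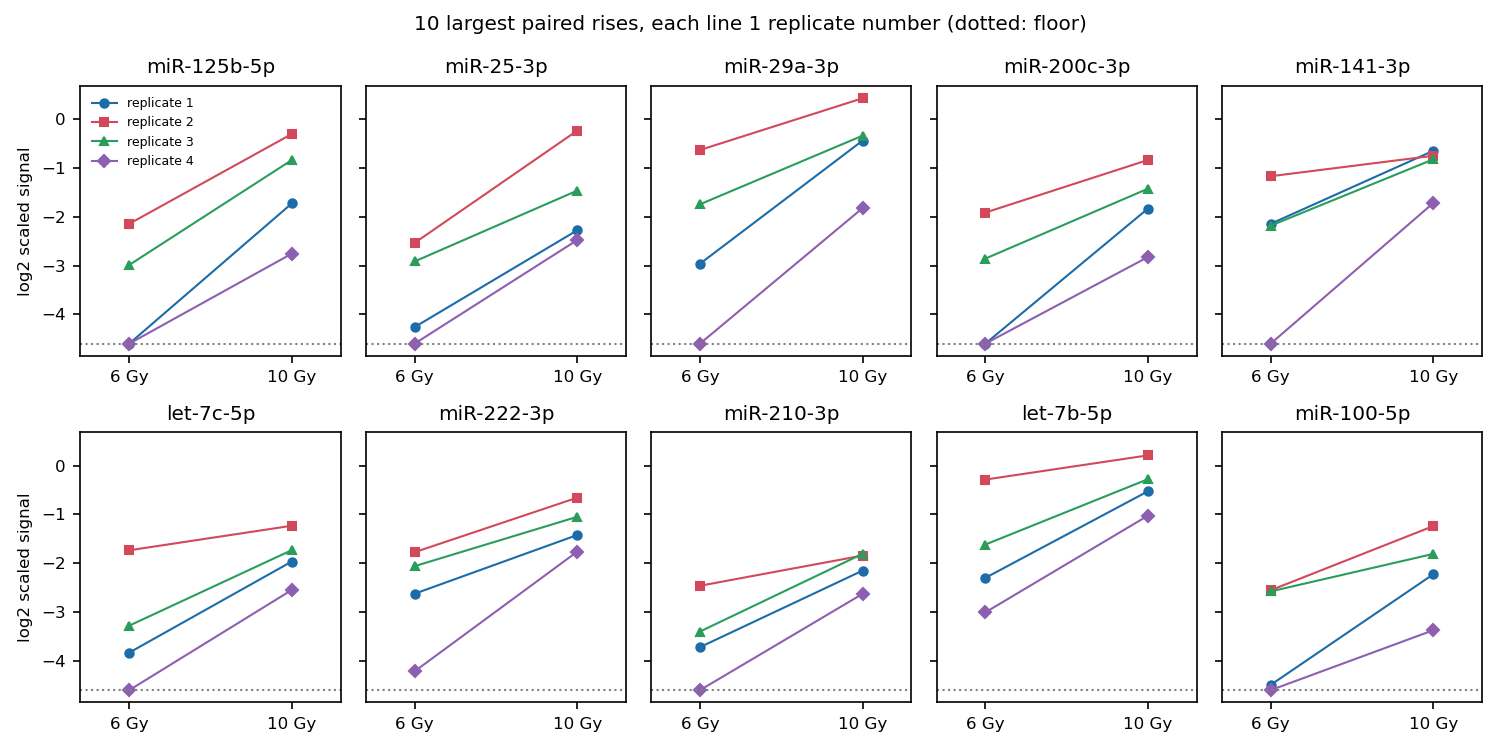
Level (log2 scaled signal) of the 10 largest paired rises on each array at 6 and 10 Gy, with lines joining same-numbered arrays and a dotted line at the floor of -4.60. Every line runs upward, and number 4, in purple, is the lowest or joint lowest 6 Gy array in all 10 panels.

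Members of other cancer-related lists were higher without passing the test. In the colorectal cancer list 0 of 3 tested members were called. miR-21-5p, which is abundant in many tumours, was at -4.60, -3.92, -3.04 and -4.60 at 6 Gy and -2.99, -1.87, -3.40 and -4.25 at 10 Gy (0.91 ± 0.42, SE; paired limma adjusted p = 0.171). It was higher in numbers 1, 2 and 4 and lower in number 3. miR-183-5p was 0.83 and miR-31-5p 0.79 higher (paired limma adjusted p = 0.068 and 0.0789). In the miR-23, miR-27 and miR-24 clusters 0 of 4 were called, although miR-24-3p was 1.52 ± 0.49 higher (SE; paired limma adjusted p = 0.0763). It was at the floor on array 4 at both doses and on array 1 at 6 Gy. miR-23a-3p was 0.91, miR-27a-3p 0.72 and miR-27b-3p 0.38 higher (paired limma adjusted p = 0.0726, 0.101 and 0.172).

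The arms of the miR-30 family did not pass the test in either direction. Among the 5p arms, miR-30d-5p was 0.57 and miR-30e-5p 0.28 higher (paired limma adjusted p = 0.211 and 0.148). Among the 3p arms, miR-30c-1-3p was -0.47 and miR-30c-2-3p -0.13 (10 minus 6 Gy; paired limma adjusted p = 0.112 and 0.663). The 6 Gy array 4 was the highest of the 8 for both 3p arms, at -1.19 and -1.94.

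The miR-320 family is processed without DROSHA, and its members split. miR-320d was at -0.91, -0.10, -0.64 and -1.80 at 6 Gy and 0.06, 0.44, 0.20 and 0.04 at 10 Gy, and rose by 1.05 ± 0.22 (SE; paired limma adjusted p = 0.0375). miR-320e was at -1.37, -0.66, -1.14 and -2.22 at 6 Gy and -0.48, -0.07, -0.31 and -0.50 at 10 Gy, and rose by 1.01 ± 0.20 (SE; paired limma adjusted p = 0.034). For these 2 the dose groups did not overlap, and with the spike-in covariate they were 0.27 ± 0.30 and 0.32 ± 0.28 higher (SE). The other tested members were not called: miR-320a differed by -0.053, miR-320b by 0.26 and miR-320c by -0.45 (paired limma adjusted p = 0.718, 0.358 and 0.0693). Differences between the members were not tested, and the names are close in sequence.

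Other rises had small errors or tight groups. miR-551b-5p was at -3.99, -3.50, -4.60 and -4.56 at 6 Gy and -3.22, -3.06, -3.20 and -3.16 at 10 Gy, and rose by 1.00 ± 0.19 (SE; paired limma adjusted p = 0.0333). Of all 283 it had the smallest unadjusted p in the unpaired fit, 0.00501 (limma adjusted p = 0.321). miR-149-3p was at -2.92, -2.87, -2.90 and -2.68 at 6 Gy and -2.40, -2.62, -2.47 and -2.43 at 10 Gy, and rose by 0.36 ± 0.08 (SE; paired limma adjusted p = 0.0408). With the spike-in as a covariate on all 16 arrays it was the 1 miRNA called without pairing, at 0.52 ± 0.09 (SE; limma adjusted p = 0.0112). Without scaling its difference was -0.13.

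miR-708-5p rose by 0.67 ± 0.07 (SE; paired limma adjusted p = 0.0119), with pair differences of 0.69, 0.78, 0.62 and 0.62. miR-181b-5p rose by 0.60 ± 0.08, miR-339-3p by 0.53 ± 0.11 and miR-3617-5p by 0.50 ± 0.09 (SE; paired limma adjusted p = 0.0233, 0.0368 and 0.0325). In these 4 the 10 Gy arrays all lay above the 6 Gy arrays. With the spike-in covariate miR-339-3p was 0.21 and miR-3617-5p 0.29 higher. miR-3621 was also among the 10 smallest unpaired p-values and its groups did not overlap, at -3.79 to -3.61 against -3.54 to -3.42, but it was not called (0.24 ± 0.07, SE; paired limma adjusted p = 0.0738). Without scaling its unpaired difference was -0.25.

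The 36 rises had a median difference of 1.00, and 19 of them exceeded 1. Of the 36, 20 were undetected on at least 1 array at 6 Gy and 3 on at least 1 at 10 Gy. For all 283 tested miRNAs these counts were 51 and 41. The rises were chosen in part by low 6 Gy values, and a miRNA could pass the detection filter through its 10 Gy arrays alone. The difference between 20 and 3 is therefore partly built in. All 4 pairs were higher for 59 of the 283 miRNAs (20.8%) and lower for 72 (25.4%), so a shared sign alone is common. The median rise was 0.92, 0.58, 0.85 and 1.24 in numbers 1 to 4. Where several probes of a rising miRNA were tested, in 26 cases, the probes had 1 sign in all 26. Over all tested miRNAs this held for 210 of the 235 with several probes. The calls were made on the mean of these same probes.

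The 19 falls were smaller, with a median of -0.40. miR-3667-5p was at -0.51, -1.30, -1.22 and -0.88 at 6 Gy and -1.32, -1.84, -1.59 and -1.60 at 10 Gy, and fell by 0.61 ± 0.10 on the log2 scale (SE; paired limma adjusted p = 0.0319). miR-548q, of a primate family derived from a transposon, was at -1.90, -2.53, -2.45 and -2.19 at 6 Gy and -2.66, -2.97, -2.74 and -2.77 at 10 Gy, and fell by 0.52 ± 0.10 (SE; paired limma adjusted p = 0.034). With the spike-in covariate these differences were -0.37 ± 0.20 and -0.29 ± 0.22 (SE). Every 10 Gy array lay below every 6 Gy array for these 2, as for 7 of the 283 miRNAs (2.47%). miR-1234-3p, with the same separation, fell by 0.44 ± 0.11 (SE; paired limma adjusted p = 0.0487). miR-18b-3p, the passenger arm of a gene in a paralogue of the miR-17-92 cluster, fell by 0.48 ± 0.11 (SE; paired limma adjusted p = 0.0399), and its groups overlapped. miR-3659, miR-3180-5p and miR-4323 each fell by 0.41, and miR-4274 fell by 0.40, with overlap between the doses. miR-3180-5p differed by -0.20 with the spike-in covariate.

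miR-133a-3p and miR-133b, muscle miRNAs that are near copies of each other, also fell, as did 6.71% of all tested miRNAs. miR-133a-3p was at -3.18, -3.44, -4.003 and -3.40 at 6 Gy and -3.80, -4.13, -4.25 and -3.76 at 10 Gy, a fall of 0.48 ± 0.10 on the log2 scale (SE; paired limma adjusted p = 0.0394). miR-133b fell by 0.46 ± 0.10 (SE; paired limma adjusted p = 0.0399). The third tested muscle miRNA, miR-206, was 0.20 ± 0.17 higher (SE; paired limma adjusted p = 0.413), and miR-1-3p, miR-208a-3p and miR-499a-5p were detected on 0 of the 8 arrays. The summed signal of the 6 muscle names ran from 0.15 to 0.218 at 6 Gy and from 0.139 to 0.182 at 10 Gy. With normexp background correction miR-133a-3p differed by 0.040 and miR-133b by 0.10, so the direction of both turned. That setting also turned miR-18b-3p to 0.052, miR-3180-5p to 0.081 and miR-4323 to 0.11.

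**Figure D4:**
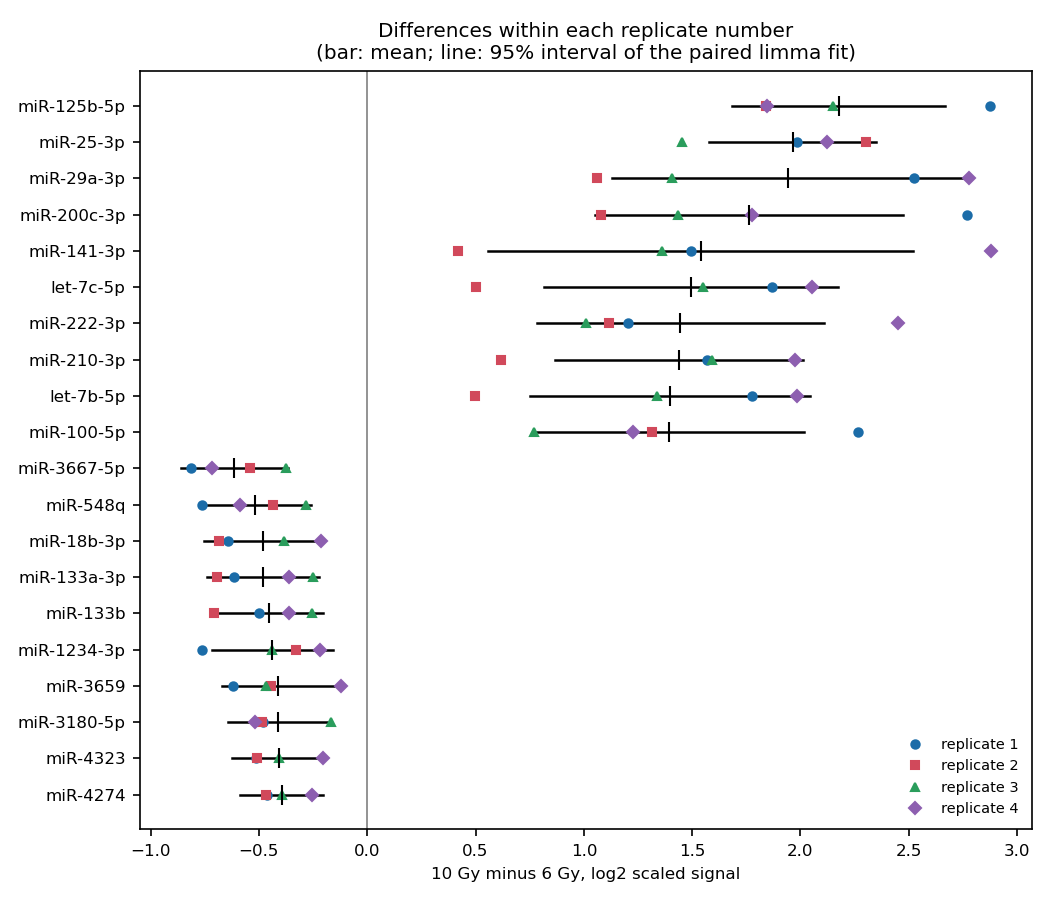
Difference between 10 and 6 Gy (log2 scaled signal) within each replicate number for the 10 largest rises and the 10 largest falls that passed the paired test, with the mean (bar) and the 95% interval of the paired limma fit (line). Rises span 1.39 to 2.18 and falls -0.61 to -0.40, and all points of a miRNA lie on 1 side of 0.

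Rises and falls differed in name. A mouse entry of the same name was found for 29 of the 36 rises (80.6%) and 2 of the 19 falls (10.5%), against 89 of all 283 tested (31.4%). Since the search left out a mouse chromosome, names without a match include any whose entry lies there. Of the 89, 32.6% rose and 2.25% fell, and of the other 194, 3.61% rose and 8.76% fell. Among names numbered up to 500, which tend to be the earliest described, 28 of 100 rose and 3 fell, while among those numbered from 3000, 5 of 77 rose and 8 fell. The 89 were also more often undetected on at least 1 array: 36 at 6 Gy, against 15 of the 194. At 10 Gy the gap was smaller, with 18 of the 89 against 23 of the 194.

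Markers of blood and liver were mostly undetected, and the tested ones were not called. Of the red blood cell names, miR-451a and miR-144-3p were detected on 0 of the 8 arrays, and miR-486-5p, detected on all 8, differed by 0.10 ± 0.10 (SE; paired limma adjusted p = 0.489). The summed red blood cell signal, which like the other sums takes in undetected names, was 0.0669 to 0.0981 at 6 Gy and 0.0848 to 0.0923 at 10 Gy. Of the 6 white blood cell and platelet names, only miR-155-5p was detected on these arrays, on all 8, and it differed by -0.034 ± 0.082 (SE; paired limma adjusted p = 0.785). That list summed to 0.153 to 0.176 at 6 Gy and 0.151 to 0.155 at 10 Gy. miR-122-5p of the liver was detected on 2 of the 8 arrays and not tested, with 0.013 to 0.0264 at 6 Gy and 0.0236 to 0.0318 at 10 Gy.

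The share of rises in the next 3 lists, 2 of 20 tested members, was near the 12.7% of all tested miRNAs. Of 9 tested names later assigned to fragments of other RNAs, with a median difference of 0.23, 1 rose. This was miR-4286, by 0.94 ± 0.22 (SE; paired limma adjusted p = 0.0408), or 0.23 ± 0.33 with the spike-in covariate. miR-1246 was 1.13 ± 0.39 higher (SE; paired limma adjusted p = 0.0922), miR-1290 0.58 and miR-1274a_v16.0 0.67 higher (paired limma adjusted p = 0.0941 and 0.0713). Of 6 tested imprinted 14q32 miRNAs 1 rose, miR-494-3p, by 0.82 ± 0.16 (SE; paired limma adjusted p = 0.0333), from 2.21, 2.26, 1.90 and 0.88 to 2.65, 3.03, 3.24 and 1.62. miR-770-5p of that list differed by -0.41, miR-134-5p by -0.031 and miR-370-3p by 0.029 (paired limma adjusted p = 0.055, 0.84 and 0.859). Of 5 tested miRNAs of the chromosome 19 and neighbouring miR-371a clusters 0 were called. Their named members were miR-526b-5p at -0.20, miR-371a-5p at 0.16, miR-373-5p at 0.10 and miR-516a-5p at 0.055. Names of the miR-15 and miR-16 family gave 0 tested members.

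The 5 brightest miRNAs of the 8 arrays were not called. miR-4281 was at 7.21, 6.95, 7.49 and 7.48 at 6 Gy and 7.04, 6.66, 6.98 and 7.32 at 10 Gy, a difference of -0.28 ± 0.09 (SE; paired limma adjusted p = 0.0751). miR-762 differed by -0.052, miR-1207-5p by -0.078, miR-1225-5p by -0.19 and miR-1202 by -0.18, with paired limma adjusted p-values from 0.101 to 0.694. No miRNA was detected on all 4 arrays of 1 of these doses and on none of the other.

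The 0 and 2 Gy arrays place these differences, but they lay on another slide, so dose and slide cannot be told apart there. Of the 36 rises, 35 had a lower mean at 6 Gy than at 0 Gy, and 31 had a 10 Gy mean between the 6 and the 0 Gy means. Over all 283 tested miRNAs these counts were 124 and 152. The rises were chosen in part by low 6 Gy values and by 10 Gy values above them, so both counts are partly built in. The 283 were not chosen in this way. miR-125b-5p had a mean level of -3.58 ± 1.22 at 6 Gy and -1.41 ± 1.07 at 10 Gy (SD, n = 4), beside -0.17 ± 2.18 in unirradiated medium and -3.70 ± 1.79 at 2 Gy. let-7b-5p averaged 0.44 ± 1.27, -0.89 ± 0.85, -1.80 ± 1.16 and -0.40 ± 0.51 in ascending order of dose (SD, n = 4). miR-149-3p went another way, with -3.11 ± 0.23, -2.48 ± 0.15, -2.84 ± 0.11 and -2.48 ± 0.09 (SD, n = 4). Of the 19 falls, 17 had a 10 Gy mean below that at 0 Gy, and 1 had a 6 Gy mean below it. Over all 283 these counts were 149 and 124, and the falls were likewise chosen in part by low 10 Gy and high 6 Gy values. miR-133a-3p averaged -3.82 ± 0.28, -3.70 ± 0.29, -3.51 ± 0.35 and -3.99 ± 0.25 (SD, n = 4).

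**Figure D5:**
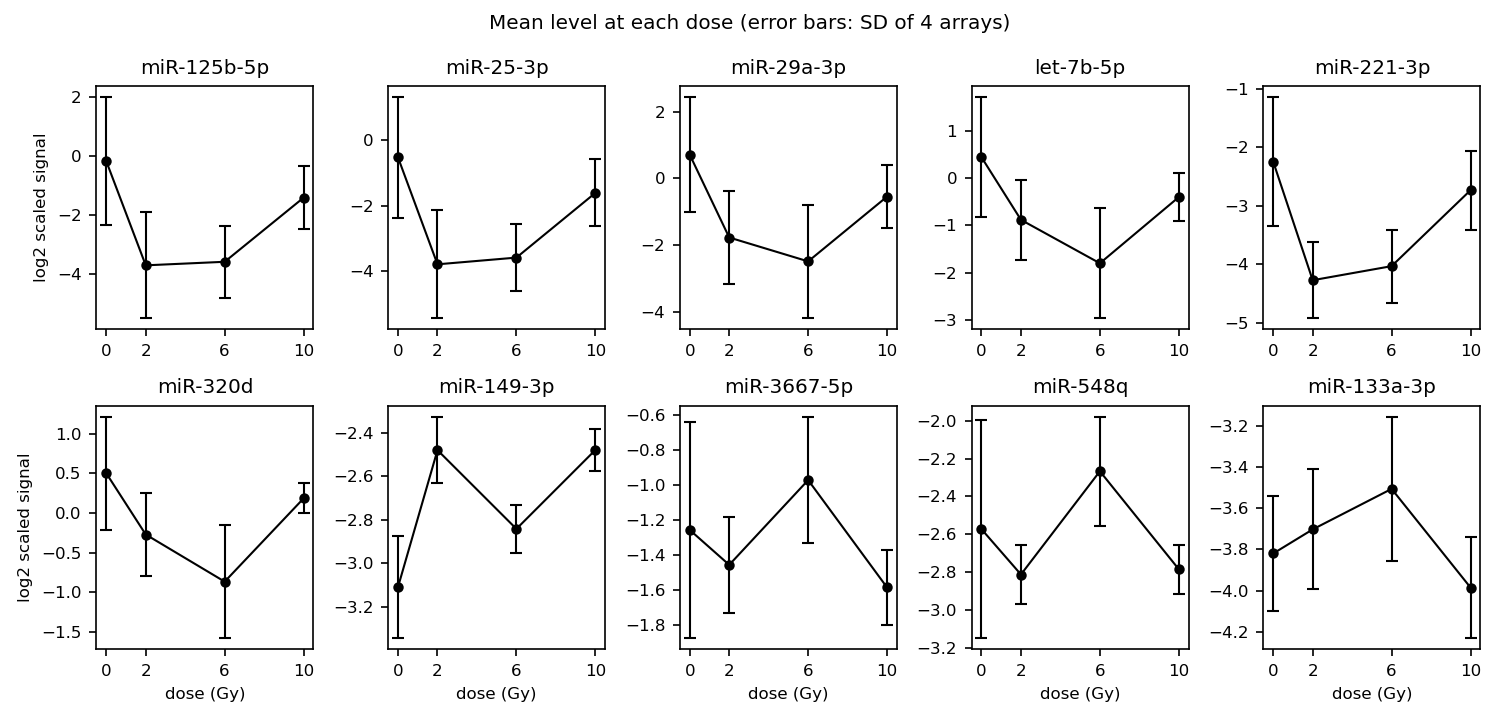
Mean level (log2 scaled signal, vertical axis, scaled separately in each panel) at 0, 2, 6 and 10 Gy (horizontal axis) of 10 described miRNAs, with error bars of 1 SD over 4 arrays. Means of miR-125b-5p were -3.58 at 6 Gy and -1.41 at 10 Gy, and the error bars of these doses overlap for miR-125b-5p, miR-25-3p, miR-29a-3p, let-7b-5p and miR-133a-3p.

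The paired calls depended on single replicate numbers. Leaving out number 1 left 5 calls, number 2 left 21, number 3 left 3 and number 4 left 38, and the first 3 of these fits called no fall. miR-221-3p and miR-25-3p were called in all 4 of these fits, miR-125b-5p and miR-200c-3p in 3, and 18 of the 55 in none.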

How the data were processed

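Cy3 labelling started from 100 ng of supernatant RNA, per the labels' protocols. The deposited files are single-colour Agilent outputs from Feature Extraction 11.5.1.1, whose processed signal is a background-subtracted intensity, per the file headers. The spike-in signals are log10 values, per the file headers. Control and outlier-flagged spots (3.33 to 4.94% per array) were left out, spots of a probe were averaged, and arrays were scaled by the 75th percentile over the 518 probes that all 16 arrays detected. Scaled values under 0.0412 were raised to it before log2. A miRNA was tested if a probe was detected on all 4 arrays of a dose (592 probes, 283 miRNAs, 4.20% of values at the floor). Detection required a well-above-background flag on a share of spots over 0.5.

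Fits used limma 3.58.1 in R 4.3.3, with Benjamini-Hochberg adjustment over 283 miRNAs, and were tested on simulated data. The simulation had a built-in replicate effect, independent noise for each miRNA and no floor. It therefore cannot tell whether the replicate numbers pair cultures. The check of pairing was made on correlations alone. No file gives depth, so the number of arrays limits precision, and if cultures were not separate, p-values measure technical spread. Named were the 10 largest rises and falls of the paired fit, the 10 smallest unpaired p-values, tested members of 20 lists (at most 4 each) and the 5 brightest. miR-92b-3p and miR-320a, outside this rule, complete their lists. The members and lists were chosen with earlier results of these data known. Alternatives covered scaling, background, floor, filter, spike-in, block and left-out arrays. Figures used Python 3.11.15 and matplotlib 3.10.9.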

Additional observations from a re-analysis of the deposited data

Results flagged for a closer look

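In 64 groups of 4 arrays checked, 2 had an array far from the others, where chance would give about 1 in 20. miR-141-3p at 10 Gy had array 4 at -1.72 against a median of -0.75 for the other 3 (gap over range 0.837). miR-3617-5p at 6 Gy had array 4 at -4.08 against a median of -3.52 (gap over range 0.867). Of the 142 viral miRNAs on the array, which no comparison used, a mean of 40.5 were detected at 6 Gy, against 38.75 at 0 Gy and 36.5 at 10 Gy. The ranges were 34 to 43 at 6 Gy, 36 to 42 at 0 Gy and 32 to 38 at 10 Gy, so they overlap.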

How the results depend on the processing

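The unpaired count of 0 stayed 0 in 29 of 31 alternatives and became 1 with the spike-in covariate and 55 with the replicate block on 8 arrays. The paired count of 55 (36 higher, 19 lower) became 24 without scaling (13 and 11; all-miRNA median -0.45), 128 with scaling over all human probes (28 and 100; median -0.21), 4 without a floor, 20 with a higher floor and 27 over miRNAs detected on all 8 arrays. It became 0 with the spike-in covariate, without the replicate block, with the block on 16 arrays and with the slide row as block. Leaving out 1 number gave 3 to 38. It was 39 with normexp (36 and 3; median 0.14), 55 with Agilent's total signal (14 and 41), 51 with quantile normalization, 60 with processing set from the 8 arrays, and 59 with scaling over detected human probes, a setting chosen after seeing the data. The cause was not tested. Turned in sign were miR-3621 (-0.25, unpaired) and miR-149-3p (-0.13 in both fits) without scaling. With normexp these were miR-3180-5p (0.081 in both fits), miR-18b-3p (0.052), miR-133a-3p (0.040), miR-133b (0.10) and miR-4323 (0.11). With 1 array left out, the difference in detected miRNAs ran from -16 to 13.5, that in the unscaled level from -0.70 to -0.34 (exact permutation p = 0.0286 without 6 Gy array 3, the smallest that 3 against 4 arrays allow), and that in the spike-in from 3.00 to 5.76. By sign flips within pairs the spike-in difference of 4.68 had an exact p of 0.125, the smallest possible. Testing with no filter could not be fitted reliably, since most residual variances were 0. Faint miRNAs at the floor limit the size of the rises.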
